A study of Xenopus laevis with 16 samples.

Results

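Hindlimbs of stage 57 Xenopus laevis tadpoles were compared at 5 days and at 1 day after amputation, on 4 arrays per day. Stage 57 is the older of the stages in the series and is described by its submitters as not competent to regenerate, and these 8 of the 16 arrays were taken by their titles, which give stage and day. The remaining 8 arrays hold stage 53 limbs, described as competent, at the same days. Limbs had been cut on 1 or both sides through the middle of the zeugopodium, the lower leg segment, and tissue was taken 1 mm proximal to the cut. All groups were amputated and no uninjured limb was analysed here, so each value compares days after injury. No genotype, drug or other treatment distinguished the groups.

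A limb stump passes within days from bleeding, clotting and inflammation to wound closure by epidermis, clearance of debris and rebuilding of connective tissue. In a limb that regenerates, a wound epidermis overlies a blastema, a mass of dividing progenitor cells that repatterns the lost segments. In frogs this capacity is lost as the limb differentiates towards metamorphosis, and the older stump heals over, often with a cartilage spike or with missing digits.

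Signals were measured on a single-colour Affymetrix Xenopus array and are given on the log2 scale, where a difference of 1 is a doubling. Of 15491 probe sets that are not controls, 11618 passed the filter on low signal, and all tests on the 8 arrays are limma fits with p-values adjusted by the Benjamini-Hochberg method over these 11618. Nothing in the labels ties the 4 arrays of a day to separate animals. The p-values therefore cover the spread between arrays alone, which may be technical. Replicate numbers only name arrays. Array codes in the titles run in an unbroken block for each day. The labels do not say whether the codes record an order of processing. If they do, an effect of that order and an effect of the day cannot be told apart. The amount of RNA, 1 microgram per array, was amplified in 2 cycles, which can copy the 3' end of transcripts more fully than the 5' end. Whether RNA was degraded was not measured here.

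Array quality varied far more within a day than between days. Beta-actin control probe sets at the 3' and 5' ends of the transcript gave a log2 ratio (3' over 5') of 0.04, 4.70, 4.76 and 0.77 in replicates 1 to 4 at 1 day. It was 0.30, 5.72, 0.90 and 2.38 in replicates 1 to 4 at 5 days. Replicates 2 and 3 at 1 day and replicate 2 at 5 days therefore lay above 4, and all other stage 57 arrays at 2.38 or below. The log2 GAPDH ratio was 4.13, 5.46, 7.33 and 3.73 in replicates 1 to 4 at 1 day. At 5 days it was 4.03, 6.17, 4.40 and 4.15. It was highest on the same 3 arrays but reached 3.73 or more on every array. Leaving out those 3 therefore does not leave only arrays of low 3' over 5' ratio. The days did not differ in the actin ratio (exact two-sided permutation p = 0.971, n = 4 per day), in the GAPDH ratio or in the bioB spike signal (p = 0.686 for each, where 0.0286 is the smallest possible). Correlations between arrays over all probe sets ran from 0.922 to 0.956 among the 5 arrays of lower ratio. They ran from 0.761 to 0.920 in pairs that include 1 or 2 of the 3 high-ratio arrays.

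**Figure D1:**
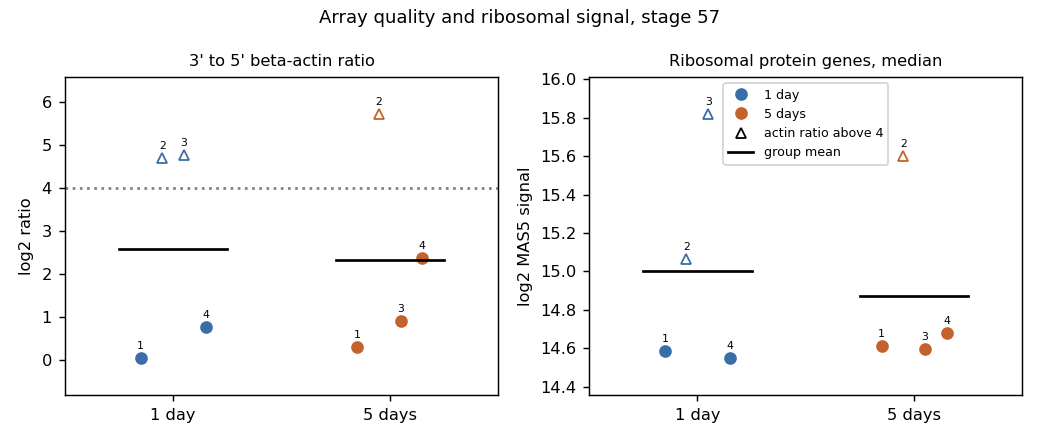
Left, log2 ratio of beta-actin signals, 3' end over 5' end, on each stage 57 array, with a dotted line at 4. Right, median log2 signal of 73 cytosolic ribosomal protein genes. Numbers are replicates, triangles are the 3 arrays with a ratio above 4 and bars are group means; the ribosomal median lies between 15.06 and 15.82 on those 3 arrays and between 14.55 and 14.68 on the other 5.

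Many probe sets differed with this quality measure. In a fit with day beside it, 2076 probe sets (17.9%) were called higher and 2067 (17.8%) lower on the 3 high-ratio arrays than on the other 5, at an adjusted p below 0.05. The comparison was therefore run with all 8 arrays and again without the 3, which leaves 2 arrays at 1 day and 3 at 5 days. For many genes and groups both values are given.

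No gene passed the test between the days. Of the 11618 probe sets, 0 (0%) were called higher and 0 (0%) lower at 5 days, and the adjusted p of each gene named in this comparison was 0.9998. At an unadjusted limma p below 0.05, 55 (0.473%) were higher and 41 (0.353%) lower. The 4 arrays at 5 days lay wholly above the 4 at 1 day for 56 probe sets (0.482%) and wholly below for 38 (0.327%). Without the 3 high-ratio arrays the calls were again 0 and 0, with a smallest adjusted p of 0.0901, and 233 (2.01%) were higher and 165 (1.42%) lower at an unadjusted p below 0.05. In this smaller set the groups did not overlap for 967 probe sets (8.32%) in the higher direction and 876 (7.54%) in the lower. All of these shares lie below what chance alone would give at the same limits if no gene changed. The background quoted for gene groups below is the share over all probe sets, which is lower than that chance share.

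The absence of calls bounds large changes for part of the genes only. The median standard error of the day difference was 0.41 and the median half-width of its 95% interval was 0.92. For 3830 probe sets (33.0%) the whole interval lay between -1 and 1, and for 6350 (54.7%) without the 3 arrays. The median within-day SD of a probe set was 0.62 at 1 day and 0.50 at 5 days. Differences of 1 or more were measured for 171 probe sets (1.47%) in the higher and 107 (0.921%) in the lower direction, none past the adjusted threshold. Over all probe sets the median difference was 0.02. Of the 6116 named genes with a kept probe set, 50.9% read higher at 5 days, which is the figure against which the gene groups are read. Without the 3 arrays the figure was 49.5% of 6118 genes. The groups and their members were chosen with earlier results of these data known. Their counts beside the background are therefore descriptive and not independent support.

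Markers of most limb cell types passed the filter on low signal. Of the 8 skeletal muscle marker genes, all 8 passed the filter, as did 4 of 4 for cartilage, 4 of 4 for fibroblasts, 7 of 10 for epidermis 4 of 5 for myeloid cells, 2 of 3 for red cells, 2 of 2 for endothelium and 1 of 3 for nerve and Schwann cells. The last, mbp.S, was dim, at 6.89 and 6.92 on the 2 days against a median of 9.29 over kept probe sets. Lymphoid markers were not used here. The log2 of the summed muscle marker signal ran from 14.06 to 15.52 at 1 day and from 14.35 to 15.76 at 5 days. The fibroblast sum ran from 16.34 to 16.82 and from 16.20 to 17.11, and the epidermal sum from 14.64 to 15.35 and from 14.64 to 15.10. The cartilage sum was wider, from 11.93 to 12.75 at 1 day and from 10.85 to 14.88 at 5 days. In such bulk tissue, fewer cells of a type and less RNA per cell cannot be told apart.

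Globin genes read lower at 5 days, and in hbg2.L, hba2.L, hbd.S and hba3.L the gap lay on 3 of the 4 arrays of that day. Hemoglobin carries oxygen in erythrocytes, which are nucleated in frogs, and tadpoles exchange larval for adult globin chains at metamorphosis. Signal of the beta-type globin gene hbg2.L was 14.36, 14.04, 13.19 and 12.89 in replicates 1 to 4 at 1 day, and 11.42, 14.26, 9.51 and 10.79 at 5 days. Replicate 2 at 5 days, a high-ratio array, read among the day 1 arrays, and the other 3 lay below all of them. The difference was -2.13 (SE 0.87, 95% interval -4.06 to -0.19, limma adjusted p = 0.9998), or 4.37-fold lower at 5 days. Without the 3 high-ratio arrays it was -3.05 (limma adjusted p = 0.786).

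The globin genes hba2.L and hbd.S had the same arrangement of arrays. Signal of hba2.L was 15.14, 14.98, 13.10 and 13.41 at 1 day and 12.65, 14.83, 10.68 and 10.85 at 5 days, a difference of -1.90 (SE 0.90), and of -2.88 without the 3 arrays. Signal of hbd.S was 15.62, 15.59, 15.25 and 14.43 at 1 day and 13.75, 16.18, 12.28 and 12.26 at 5 days, a difference of -1.61 (SE 0.79), and of -2.26 without the 3 arrays. In both genes replicate 2 stood above the rest of its day by more than 2 units, and the other arrays of day 5 lay below every array of day 1. The difference of hba3.L was -1.27, and -1.71 without the 3 arrays. That of hba4.S, a gene outside the naming rule, was -2.11, and -3.93 without the 3 arrays, and in it replicate 1 at 5 days (10.27) read above replicate 3 at 1 day (8.91). Probe sets of related globins can bind each other's transcripts, so these are not independent measurements.

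The anion exchanger of the red cell membrane followed them. Signal of slc4a1.L, band 3, which swaps chloride for bicarbonate, was 9.82, 8.78, 8.50 and 7.39 at 1 day and 3.57, 8.73, 6.0 and 5.88 at 5 days. The difference was -2.58 (SE 0.96, 95% interval -4.72 to -0.43), and -3.46 without the 3 arrays. Replicate 2 at 5 days again read within the range of day 1. The day 5 mean of slc4a1.L, 6.05, lay far below the median of 9.29 over kept probe sets. At so dim a level the size of its difference is uncertain. The log2 of the summed red cell markers ran from 13.13 to 14.80 at 1 day and from 11.71 to 14.92 at 5 days. Of 18 erythroid genes on the array 14 passed the filter, and 12 of these read lower at 5 days, with a median of -0.68. The median level of these 14 was 10.59, 10.13, 8.73 and 9.54 at 1 day and 9.66, 9.48, 8.04 and 8.20 at 5 days, so for the whole group replicates 3 and 4 at 5 days lay below day 1, and replicates 1 and 2 within it. At an unadjusted p below 0.05, 2 were lower with all 8 arrays (background 0.353%) and 6 of 13 without the 3 arrays (background 1.42%). At stage 53 the same genes also read lower at 5 days, with a difference of -1.49 for hbg2.L and of -1.33 for slc4a1.L, and the stage by day interaction had an adjusted p of 0.9967 for both.

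**Figure D2:**
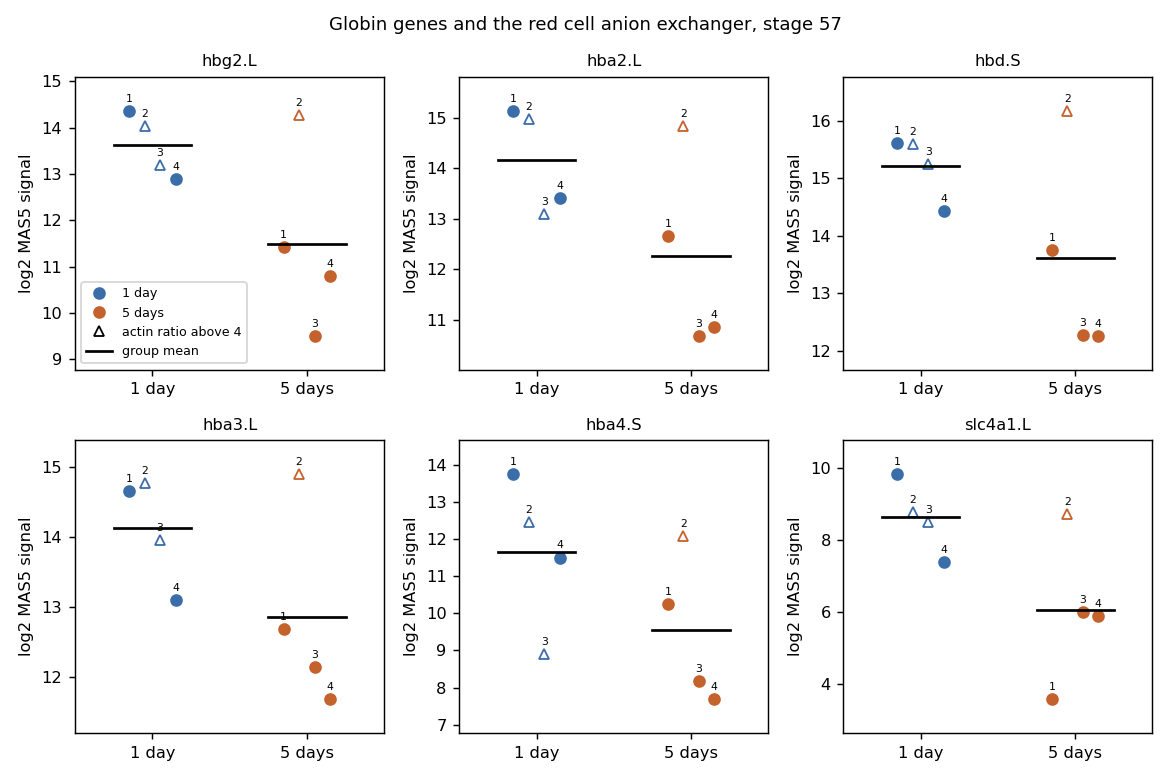
Log2 MAS5 signal of 5 globin genes and of slc4a1.L on each stage 57 array, with replicate numbers, triangles for the 3 arrays with an actin ratio above 4 and bars for group means. On all 6 panels replicate 2 at 5 days lies at or above the level of day 1, and replicates 1, 3 and 4 at 5 days lie below all 4 arrays of day 1 except for hba4.S.

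Among epidermal genes, the keratin krt70.S had the smallest p of any gene within the naming rule. Keratins are the intermediate filaments of epithelial cells. Signal of krt70.S was 11.72, 12.59, 12.44 and 11.58 in replicates 1 to 4 at 1 day and 10.22, 11.38, 10.02 and 8.95 at 5 days. Every array of day 5 lay below every array of day 1. The difference was -1.94 (SE 0.50, 95% interval -3.05 to -0.83, limma adjusted p = 0.9998), a 3.83-fold lower signal, and -1.92 without the 3 high-ratio arrays. The other 2 probe sets of the gene differed by -2.16 and -1.66, and in these the days overlapped. This probe set is of a design that can bind related transcripts, so the signal may belong to more than this keratin.

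Most other epidermal genes read slightly lower, but several keratins read higher. Of 59 epidermal genes on the array 47 passed the filter, and 31 of them read lower and 16 higher, with a median of -0.14. Without the 3 arrays 35 of 46 read lower, 6 at an unadjusted p below 0.05 (background 1.42%) and 2 higher (background 2.01%). The desmosomal plaque gene pkp2.L differed by -0.73, krt7.L by -0.49 and the keratin krt12.5.S by -0.37. Other krt12 genes read higher, krt12.2.S by 0.82 (SE 0.82), krt12.2.L by 0.35 and krt12.6.S by 0.08. Of the 7 epidermal markers that passed, 4 read higher and 3 lower, with a median of 0.08. The keratin krt78.7.L had the largest difference in the higher direction. It read 5.35, 5.38, 7.66 and 3.29 on day 1 and 5.15, 7.48, 10.64 and 10.25 on day 5. Only replicates 3 and 4 at 5 days stood above day 1 in that gene, and the difference was 2.96 (SE 1.27, 95% interval 0.12 to 5.80), and 4.36 without the 3 arrays. The day 1 mean of krt78.7.L, 5.42, lay far below the median of 9.29 over kept probe sets. The gene was dim on that day, so the size of its difference is uncertain.

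Ion-transporting cells of larval skin were read through their pumps and carbonic anhydrases. Signal of atp1b2.L, a beta subunit of the sodium-potassium pump, was 11.33, 9.86, 9.62 and 10.67 at 1 day and 9.41, 9.76, 9.35 and 8.99 at 5 days. The difference was -0.99 (SE 0.40, 95% interval -1.89 to -0.09), and -1.75 without the 3 arrays. The 2 highest signals were those of replicates 1 and 4 at 1 day, and the high-ratio arrays of both days read between 9.62 and 9.86. Carbonic anhydrase ca2.L, which is also abundant in red cells, differed by -1.22 (SE 0.54). Its day means of 7.42 and 6.20 were dim, and it did not pass the filter without the 3 arrays. Of 24 genes of this group 19 passed, of which 11 read higher and 8 lower, with a median of 0.13. At an unadjusted p below 0.05, 3 of the 19 were lower (background 0.353%). These were atp1b2.L, ca2.L and slc4a1.L, and slc4a1.L is also counted among the erythroid genes above. Without the 3 arrays 5 of 18 read higher and 13 lower, with a median of -0.11.

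The complement genes c3.L and c9.L had the smallest p of the injury group, and read higher at 5 days. Complement proteins mark debris and microbes for uptake. Signal of c3.L, the central component, was 7.07, 7.35, 6.44 and 8.08 at 1 day and 8.36, 8.43, 8.96 and 8.34 at 5 days. All 4 arrays of day 5 lay above all of day 1. The difference was 1.29 (SE 0.39, 95% interval 0.43 to 2.15, limma adjusted p = 0.9998), or 2.45-fold, and 0.98 without the 3 arrays. Both day means lay below the median signal of kept probe sets, 9.29, so the gene is dim.

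Signal of c9.L, which forms the pore of the membrane attack complex, was 7.43, 7.05, 7.58 and 8.09 at 1 day and 8.50, 7.85, 9.76 and 9.79 at 5 days. The difference was 1.44 (SE 0.48, 95% interval 0.37 to 2.5), and 1.59 without the 3 arrays. Replicate 2 at 5 days fell within day 1 and the other 3 above it. The first-component subunit c1qc.L, made largely by macrophages, differed by 0.46, with an interval of -0.17 to 1.09, and by 0.79 without the 3 arrays. The protease inhibitor a2m.S, alpha-2-macroglobulin, differed by 0.88 (SE 0.38, 95% interval 0.04 to 1.73), and by 0.75 without the 3 arrays.

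**Figure D3:**
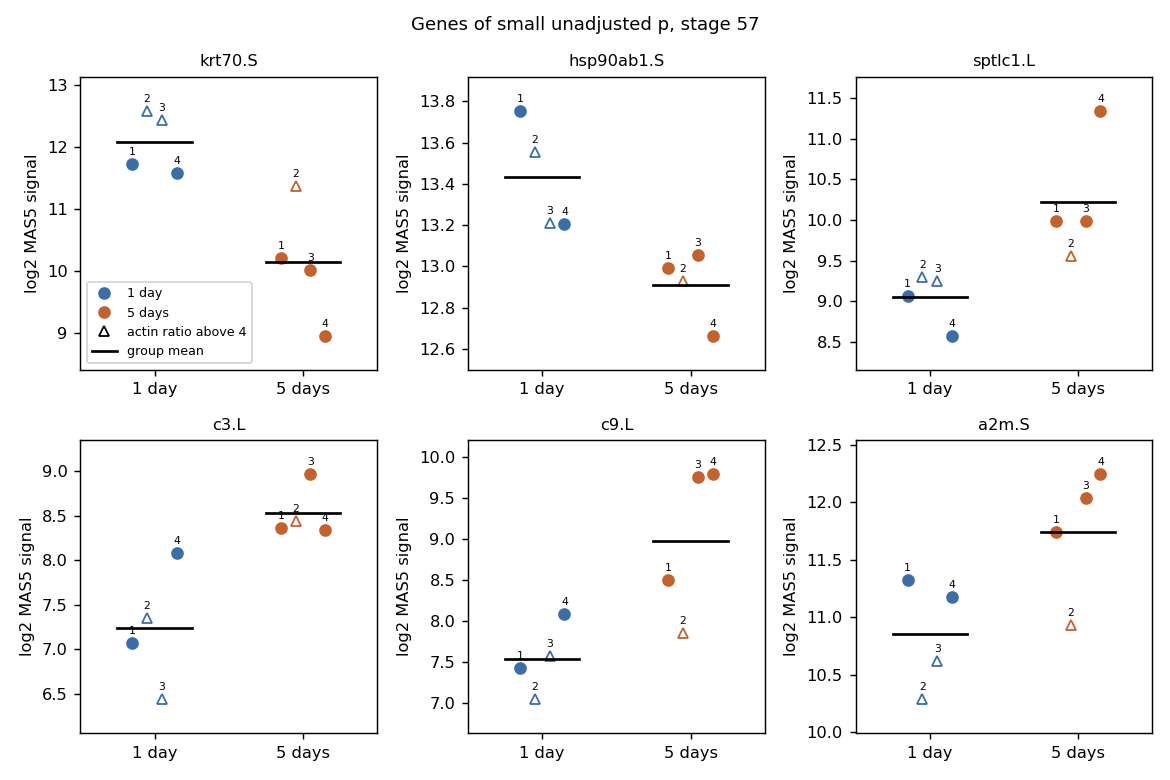
Log2 MAS5 signal of 6 genes on each stage 57 array, with replicate numbers, triangles for arrays with an actin ratio above 4 and bars for group means. The days do not overlap for krt70.S, hsp90ab1.S, sptlc1.L and c3.L, and overlap at replicate 2 of day 5 for c9.L and a2m.S.

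Over the whole injury and inflammation group the shift was small. Of 51 genes 42 passed, 29 reading higher and 13 lower with a median of 0.19, and 2 were higher at an unadjusted p below 0.05 (background 0.473%). Without the 3 arrays the split was 23 to 19 and the median 0.03. The immediate early gene egr1.L differed by -0.04 and jun.L by 0.44. The cytokine feedback inhibitor socs3.L differed by 0.48 (SE 0.27), with signals of 11.10, 11.45, 11.08 and 11.16 at 1 day and 11.68, 12.04, 11.42 and 11.56 at 5 days. Only replicate 3 at 5 days read below the highest array of day 1 in that gene.

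Myeloid genes centred on 0. Of 19 genes 16 passed, 9 higher and 7 lower, with a median of 0.02 that turned to -0.02 under quantile normalization and was -0.07 without the 3 arrays. The neutrophil enzyme mpo.S differed by 1.2 (SE 0.58), but by 0.44 without the 3 arrays. Its brighter homeolog mpo.L, at a mean of 12.29 on day 1 against 6.16 for mpo.S, differed by -0.02, and by -0.03 without the 3 arrays. Lysozyme lyz.L differed by 0.79, where replicate 1 at 5 days read 10.62 and every other array 8.79 or less. The lectin lgals3.L, abundant in macrophages and epithelia, differed by -0.52. Of 12 lymphoid and antigen presentation genes 9 passed and 8 read higher, with a median of 0.20, and 6 of 9 without the 3 arrays. The immunoproteasome subunit psmb8.L differed by 0.86.

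Connective tissue genes read mostly higher at 5 days. Of 36 fibrillar matrix and fibroblast genes 33 passed, 28 reading higher and 5 lower with a median of 0.36. None passed an unadjusted p of 0.05 with all 8 arrays. Without the 3 arrays 32 of 33 read higher, the median was 0.38 and 8 of 33 had an unadjusted p below 0.05 (background 2.01%), namely thbs4.S, thbs4.L, tagln.L, emilin2.L, fn1.S, p4ha2.L, ccn2.L and tgfbi.L, of which thbs4.L, emilin2.L, p4ha2.L, ccn2.L and tgfbi.L stand outside the naming rule and were named after their values were seen. The median level of the group was 12.51 or less on every day 1 array and 12.43, 11.56, 12.80 and 13.01 on the day 5 arrays, so replicate 2 at 5 days was the lowest of all 8.

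The thrombospondin thbs4.S, a matrix protein of tendon and muscle attachment, had signals of 9.22, 7.93, 10.07 and 10.07 at 1 day and 11.01, 7.78, 12.19 and 11.65 at 5 days. The difference was 1.33 (SE 0.90), and 1.97 without the 3 arrays (limma adjusted p = 0.786). Apart from replicate 2, every array of day 5 stood above day 1. Transgelin, tagln.L, an actin-binding protein of smooth muscle and myofibroblasts, read 8.70, 8.12, 10.85 and 11.49 at 1 day and 11.90, 9.16, 11.77 and 11.67 at 5 days. It differed by 1.33 (SE 0.85) and by 1.69 without the 3 arrays.

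Abundant collagen and wound matrix genes had differences close to their errors. The fibrillar collagen gene col1a2.L differed by 0.46 (SE 0.72, 95% interval -1.14 to 2.07), by 0.19 without the 3 arrays, and col3a1.S by 0.27 (SE 0.32). The bright collagen gene col1a1.S was level, with a difference of 0.01 (SE 0.31). The matrix genes sparc.S and sparc.L differed by 0.13 (SE 0.27) and 0.06 (SE 0.44). Fibronectin fn1.S differed by 0.36 (SE 0.25), with signals of 15.01 to 15.46 at 1 day and 15.20 to 15.82 at 5 days. The early wound matrix gene tnc.L, tenascin C, differed by 0.54 and the proteoglycan vcan.L by 0.49. All of these had intervals that include 0. Of 3 basement membrane genes all 3 passed and read higher, with a median of 0.21.

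Proteases and their inhibitors gave a similar picture. Of 30 genes 24 passed, 20 reading higher and 4 lower with a median of 0.36, and 0.15 without the 3 arrays. Signal of timp2.L, a metalloproteinase inhibitor, was 12.26, 11.40, 10.20 and 13.00 at 1 day and 12.96, 10.94, 13.43 and 13.64 at 5 days, a difference of 1.03 (SE 0.71), and of 0.71 without the 3 arrays. The membrane-bound collagenase mmp14.L differed by 0.96 (SE 0.67), and by 0.62 without the 3 arrays, the stromelysin mmp11.L by 0.89 (SE 0.58) and the thrombin inhibitor serpine2.L by 0.85 (SE 0.52). In all 4 the high-ratio array of day 5 read lowest of its day. Between high-ratio and other arrays, beside day, mmp14.L differed by -2.04 (limma adjusted p = 0.00139) and timp2.L by -2.07 (limma adjusted p = 0.00258). The gelatinase mmp9.1.S, a product of leukocytes and wound epidermis, lay the other way, with a difference of -0.59 (SE 0.48) and of -1.2 without the 3 arrays.

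Cartilage genes read higher on the mean in every case, and the arrays of day 5 were widely apart. Of 10 genes 8 passed and all 8 were above 0, with a median of 0.76, and of 1.26 without the 3 arrays. The median level of the group was 8.78, 9.77, 10.03 and 8.90 in replicates 1 to 4 at 1 day, and 8.43, 10.08, 10.25 and 11.60 at 5 days. Day 5 thus held both the lowest and the highest array of the 8. The chondrocyte regulator sox9.S differed by 1.11 (SE 0.50), with 8.53, 10.46, 9.97 and 10.45 at 1 day and 10.40, 10.88, 10.68 and 11.89 at 5 days. The matrix genes col9a2.L and matn1.L differed by 1.17 each (SE 0.74 and 0.78), and matn2.L by 0.76. Without replicate 4 at 5 days these 3 differences were 0.47, 0.46 and 0.49. The difference of sox9.S was 0.67 without replicate 1 at 1 day. The main cartilage collagen col2a1.S read 10.20 in replicate 1 and 14.20 in replicate 4 at 5 days, against 10.66 to 12.29 at 1 day. Of 8 bone genes 8 passed, 4 on each side of 0 with all 8 arrays, and all 8 were above 0 without the 3, with a median of 0.27.

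Skeletal muscle genes read a little higher at 5 days, with much spread. Of 62 genes 53 passed, 40 higher and 13 lower, with a median of 0.26, and of 0.35 without the 3 arrays. Skeletal alpha-actin acta1.S read 13.18, 9.94, 10.20 and 10.43 at 1 day and 12.43, 10.19, 12.73 and 13.17 at 5 days, a difference of 1.19 (SE 0.82). Replicate 1 at 1 day stood with the day 5 arrays, and replicate 2 at 5 days with day 1. The LIM-domain gene fhl1.L differed by 0.95 (SE 0.40, 95% interval 0.06 to 1.83), tpm2.S, a tropomyosin, by 0.83 and the intermediate filament gene des.1.S by 0.57. Of 15 genes of myogenic regulators 9 passed, 3 higher and 6 lower, and the determination factor myf5.L differed by -0.64 (SE 0.50).

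Cell division genes read higher at 5 days by a small median. Of 99 cell cycle and mitosis genes 90 passed, 67 higher and 23 lower, with a median of 0.21, and of 0.31 with 80 of 90 higher without the 3 arrays. In that smaller set 0 of the 90 were higher at an unadjusted limma p below 0.05 (background 2.01%). In the lower direction 1 was (background 1.42%). The mitotic kinase aurka.S read 8.23, 5.31, 5.48 and 8.59 at 1 day and 9.02, 8.33, 8.96 and 9.05 at 5 days. The 2 low signals were those of the high-ratio arrays of day 1, and the difference of 1.94 (SE 0.74, 95% interval 0.28 to 3.60) was 0.60 without the 3 arrays. Its signal was lower on the high-ratio arrays, with a difference of -2.02 beside day (limma adjusted p = 0.0078). The spindle genes prc1.2.S and kif11.S differed by 0.74 and 0.44, and the mitotic entry kinase cdk1.S by 1.08 (SE 0.73), or 0.65 without the 3 arrays. The homeolog cdk1.L differed by 0.75, and by 0.12 without the 3 arrays. None of these passed the adjusted test.

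Of 61 DNA replication genes 55 passed, 38 higher and 17 lower with a median of 0.13. The replication clamp pcna.L differed by 0.14 (SE 0.28), the ribonucleotide reductase subunit rrm2.2.L by 0.40 and the maintenance methylation factor uhrf1.S by 0.49. At stage 53 the day difference of uhrf1.S was 1.48 and that of rrm2.2.L 1.08, and the interaction had an adjusted p of 0.9967 for both, so a stage difference was not detected.

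Limb patterning and signalling genes had medians near 0 with all 8 arrays, and the split of the patterning genes turned without the 3. Of 54 patterning genes 37 passed, 14 higher and 23 lower with a median of -0.05. Without the 3 arrays 28 read higher and 7 lower of 35, with a median of 0.15, and 3 were higher at an unadjusted p below 0.05 (background 2.01%). The proximal limb factor meis2.L differed by -1.01 (SE 0.48), and by -0.52 without the 3 arrays. The distal mesenchyme factor msx1.L differed by 0.23 and the posterior factor hand2.S by 0.38, while the homeolog hand2.L differed by -0.22. Without the 3 arrays hand2.S differed by 0.51 (SE 0.70) and hand2.L by 0.09 (SE 0.58), so the homeologs did not keep opposite directions. Medians were 0.16 over 8 FGF genes, 0.07 over 28 WNT genes and 0.14 over 41 genes of the BMP and TGF-beta pathways, and -0.02, 0.11 and 0.24 without the 3 arrays. Of the BMP and TGF-beta genes 29 of 39 then read higher, 5 at an unadjusted p below 0.05 (background 2.01%), and 10 did not overlap between days in that direction (background 8.32%). The secreted WNT inhibitor wif1.S differed by 1.01 (SE 0.59), and by 1.46 without the 3 arrays, and the BMP target id4.S by 0.72. The receptor-regulated smad2.L differed by -0.95 (SE 0.44), and by -0.46 without the 3 arrays.

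Thyroid hormone drives metamorphosis, and its inactivating deiodinase dio3.L protects tissues from it. Signal of dio3.L was 10.05, 10.41, 10.63 and 9.55 at 1 day and 10.69, 9.98, 12.07 and 10.81 at 5 days. The difference was 0.73 (SE 0.45), and 1.39 without the 3 arrays, while at stage 53 it was -1.08. The interaction was 1.81 (limma adjusted p = 0.9967). Of 19 thyroid response genes 14 passed, 6 higher and 8 lower with a median of -0.07. Without the 3 arrays the direction turned, with 11 higher and 2 lower of 13 and a median of 0.22.

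Cytosolic chaperones read lower at 5 days. These proteins fold others and are made in excess under stress. Signal of hsp90ab1.S, the constitutive HSP90, was 13.75, 13.56, 13.21 and 13.21 at 1 day and 12.99, 12.93, 13.06 and 12.66 at 5 days. No array of day 5 reached day 1, and the difference was -0.52 (SE 0.26, 95% interval -1.11 to 0.07), or -0.58 without the 3 arrays. Of 41 chaperone genes 37 passed, 28 lower and 9 higher with a median of -0.25, and 32 of 37 were lower without the 3 arrays. The co-chaperones hspbp1.L and ahsa1.L differed by -0.73 and -0.69. In 2 of the 37 the days did not overlap in the lower direction (background 0.327%). In the endoplasmic reticulum group 63 of 64 genes passed with a median of 0.08. The disulfide isomerase pdia6.L differed by -1.04 (SE 0.57) and the retrieval receptor kdelr2.L by 0.63.

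Ribosomal protein genes differed more between high-ratio and other arrays than between days. Of 74 genes 73 passed, 57 lower and 16 higher with all 8 arrays, and their median of -0.19 turned to 0.07 without the 3 arrays and was -0.01 under quantile normalization. The median level was 15.06, 15.82 and 15.60 on the 3 high-ratio arrays and 14.55 to 14.68 on the other 5. Mitochondrial respiration genes were level, with 34 higher and 37 lower of 71 and a median of -0.02. Medians were 0.05 over 34 glycolysis genes and 0.07 over 43 genes of the tricarboxylic acid cycle and fatty acid oxidation. In the latter group aco1.L, the cytosolic aconitase that also senses iron, differed by -1.2 (SE 0.50, 95% interval -2.31 to -0.09) and by -0.70 without the 3 arrays.

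Vessel, nerve and cytoskeleton groups had medians near 0. Medians were 0.12 over 16 endothelial and vessel genes, 0.05 over 22 nerve and Schwann cell genes and 0.14 over 58 genes of the actin cytoskeleton and cell migration. The growth cone gene gap43.L, which is induced in regrowing axons, read 12.01, 12.43, 11.87 and 13.02 at 1 day and 12.59, 12.69, 13.33 and 13.28 at 5 days, a difference of 0.64 (SE 0.34).

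**Figure D4:**
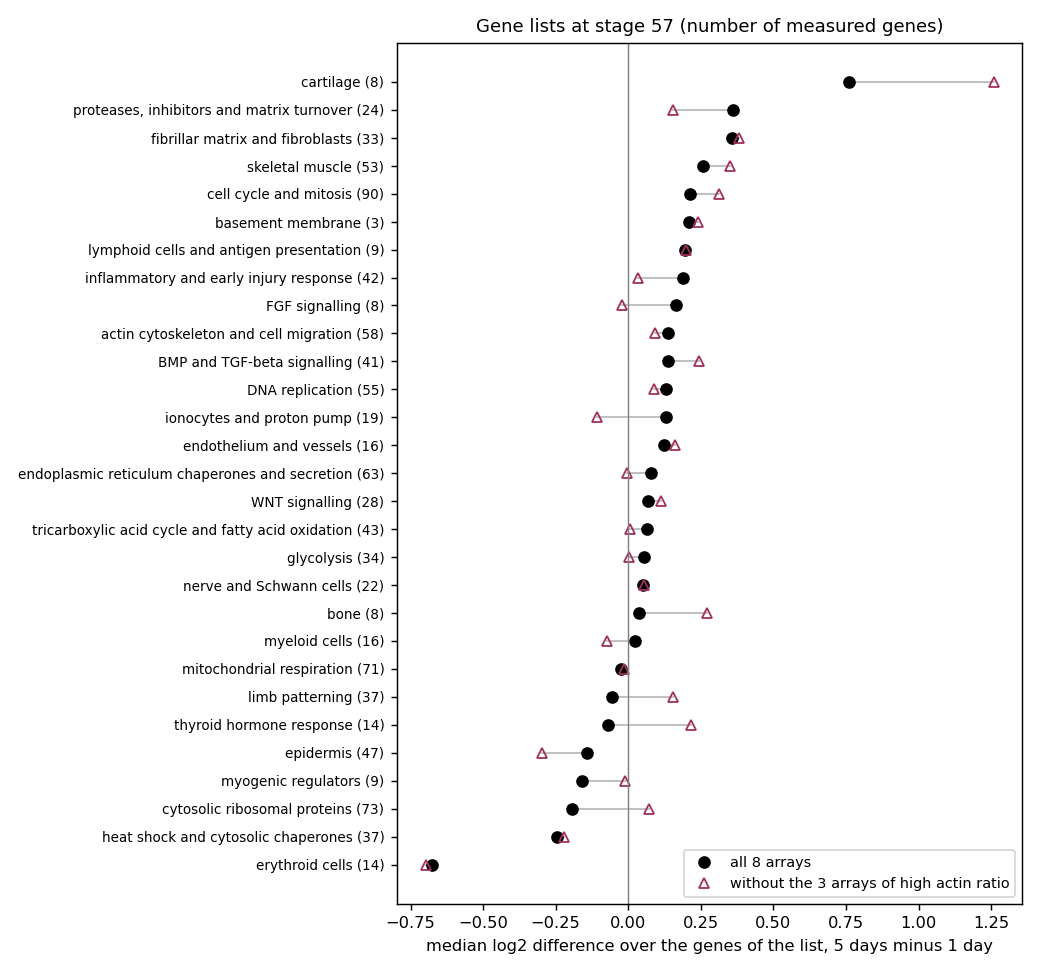
Median log2 difference, 5 days minus 1 day, over the measured genes of each of 29 groups at stage 57, with all 8 arrays (circles) and without the 3 arrays of high actin ratio (triangles). Cartilage lies highest, at 0.76 and 1.26, and erythroid genes lowest, at -0.68 and -0.70, while the ribosomal median crosses 0 from -0.19 to 0.07.

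Across all genes, 19 that were bright enough and did not overlap between days lay higher at 5 days, and 11 lay lower, with ctps2.L in both. The 15 of smallest unadjusted p in the higher direction and the 11 in the lower are named, and none passed the adjusted test. Over all kept probe sets the share without overlap was 0.482% in the higher and 0.327% in the lower direction, less than chance alone would give. The names are therefore a description of the data and not detected changes. Signal of sptlc1.L, a subunit of the enzyme that begins sphingolipid synthesis, was 9.06, 9.30, 9.25 and 8.58 at 1 day and 9.98, 9.56, 9.99 and 11.34 at 5 days. The difference was 1.17 (SE 0.40, 95% interval 0.28 to 2.07), and 1.62 without the 3 arrays. Other probe sets of sptlc1.L differed by 1.05, 0.15 and -0.14, so they do not share 1 direction. The one shown is of a design that can bind related transcripts. The mitochondrial transporter gene sfxn3.L differed by 1.11, but by 0.51 without the 3 arrays, since replicate 3 at 1 day read 7.19 against 8.60 or more elsewhere. The RNA-binding regulator bicc1.S differed by 0.64, the cyclin ccng2.L, which is linked to cell cycle arrest, by 0.68 and pafah1b3.L, a subunit of platelet-activating factor acetylhydrolase, by 0.70.

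The remaining genes in the higher direction differed by 0.28 to 0.69. They were ctps2.L, abhd14b.L, the lysosomal sulfatase galns.L, the membrane skeleton gene epb41l3.L, the histone demethylase kdm3a.L, the mitochondrial thioredoxin reductase txnrd2.S, zfyve21.L, zranb1.S, znf593.S and the fatty acid carrier fabp3.S. Of these, ctps2.L, a CTP synthase, has 9 probe sets here that differed by -0.48 to 1.29, and 2 others read lower with no overlap, so its direction is not settled. In the lower direction, beside krt70.S and hsp90ab1.S, the differences were -0.64 to -0.13. They were measured for the RNA polymerase I subunit polr1e.L, the mitochondrial peptidase subunit pmpca.S, the dynein chain dync1li1.S and dnajc7.L. The others were the nuclear import receptor ipo7.L, the mRNA cap methyltransferase rnmt.L, the ubiquitin-conjugating enzyme cdc34.L and klhl7.S. Another probe set differed by only -0.01 for pmpca.S and by 0.07 for dnajc7.L. Without the 3 arrays the named probe sets of these genes differed by -0.66 and -0.16.

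Whether the day difference at stage 57 differed from that at stage 53 was tested as an interaction over all 16 arrays. It was called for 3 probe sets (0.0258%) in the higher direction and 0 (0%) in the lower. At stage 53 itself 4 probe sets (0.0344%) were called higher and 10 (0.0861%) lower at 5 days. For all 3 the signal at stage 53 was lower at 5 days, and at stage 57 the days lay close or the other way. Without the high-ratio arrays the interactions were about as large, at 3.93 for krt17.S, 4.26 for mmp13l.L and 2.49 for socs3.L, and none was called (limma adjusted p of 0.0858, 0.0858 and 0.11).

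The gene krt17.S, a keratin that mammalian epidermis makes after wounding, read 13.97 ± 0.36 at 1 day and 9.59 ± 1.06 at 5 days at stage 53 (SD, n = 4 each). At stage 57 it read 14.30 ± 0.56 and 14.10 ± 0.47. The interaction was 4.18 (SE 0.61, limma adjusted p = 0.0363). The collagenase-like gene mmp13l.L read 7.60 ± 0.74 and 4.81 ± 0.47 at stage 53, and 7.63 ± 0.59 and 8.61 ± 0.56 at stage 57, with an interaction of 3.77 (SE 0.61, limma adjusted p = 0.0483). Both of these genes were named after their values were seen. The mmp13l.L signals at stage 53 and 5 days were 4.41, 4.87, 5.45 and 4.49. The median over kept probe sets at stage 57 was 9.29. At such a dim level signal was not separated from background, so the size of the mmp13l.L interaction is uncertain.

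The cytokine signalling inhibitor socs3.L read 11.83 ± 0.33 and 9.77 ± 0.65 at stage 53, and 11.20 ± 0.17 and 11.67 ± 0.27 at stage 57. Its interaction was 2.54 (SE 0.42, limma adjusted p = 0.0483). Leaving out 1 of the 16 arrays at a time kept the call in 4 of 16 fits for krt17.S and in 1 of 16 for each of mmp13l.L and socs3.L, with adjusted p up to 0.134, 0.164 and 0.179. The interstitial collagenase mmp1.S had an interaction of 6.14, the stage 53 difference being -5.26 and the stage 57 difference 0.88, but its adjusted p was 0.0741. The interaction of krt70.S was -2.82 (limma adjusted p = 0.657).

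**Figure D5:**
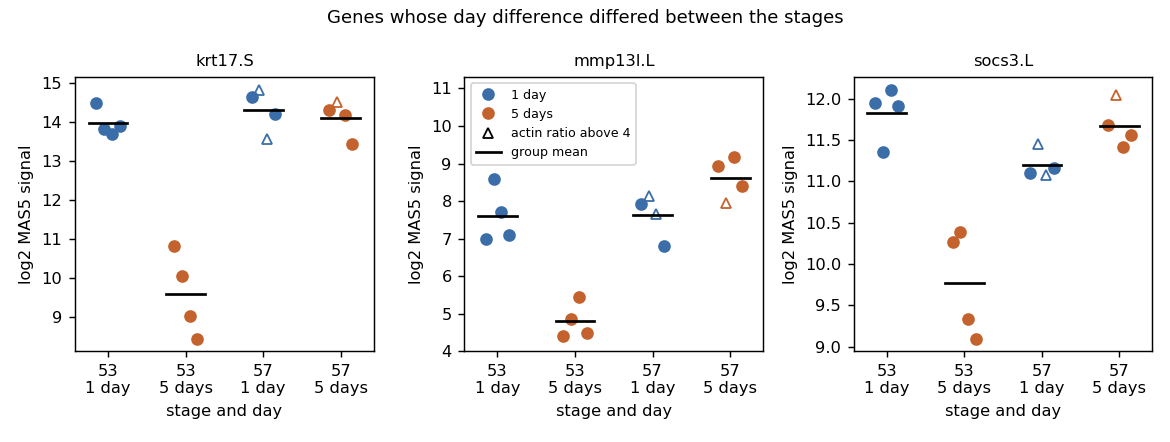
Log2 MAS5 signal of krt17.S, mmp13l.L and socs3.L on each of the 16 arrays by stage and day, with group means as bars and triangles for the 3 arrays with an actin ratio above 4. The 4 arrays of stage 53 at 5 days lie apart below the other groups in each gene, and the stage 57 means read 14.30 and 14.10, 7.63 and 8.61, and 11.20 and 11.67 at 1 and 5 days.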

How the data were processed

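The submitters deposited 1 linear signal intensity per probe set and array, made by the authors with MAS5 per the submitters' processing notes. Its version and scaling target are not given in the sources used here. The trimmed mean signal lay between 1000.15 and 1000.23 on the stage 57 arrays. Of 15611 probe sets, 120 controls were left out. Of the other 15491, the platform annotation gave 9304 a single symbol, 195 several and 5992 none, and 9227 matched RefSeq genes by Entrez identifier.

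Intensities were converted here to log2 without an offset. Probe sets with a mean above the 25th percentile were kept. The 8 stage 57 arrays were fitted with limma 3.58.1 in R 4.3.3 (lmFit, eBayes with an intensity trend), with Benjamini-Hochberg adjustment and a call at an adjusted p below 0.05. The interaction used all 16 arrays. The fitting was run on simulated data with independent noise for each probe set and array. That simulation held no shared effect of array quality, so it cannot show how the fit behaves under one. The number of arrays limits the precision.

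Members and the 29 gene lists were chosen with earlier results of these data known. A gene stands in a list by its brightest kept probe set. Named genes are up to 15 per direction by call, then by smallest p, that do not overlap between days, carry 1 informative symbol and read above the median signal, with up to 4 members of smallest p per list and a fixed set of limb genes. Alternatives were leaving out, marking, fitting or down-weighting the high-ratio arrays, quantile and median scaling, 2 offsets, other filters, no trend, robust moderation, a fit of all 16 arrays and leaving out each array.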

Additional observations from a re-analysis of the deposited data

Results flagged for a closer look

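In 184 groups of 4 arrays, 11 arrays stood apart from the other 3 of their day by Dixon's criterion, where chance flags about 1 in 20 groups. Of the 11, 8 were on the 3 arrays of high actin ratio. Replicate 2 at 5 days read apart in klhl7.S (10.5, nearest 10.68), mmp11.L (8.73, nearest 10.38), tagln.L (9.16, nearest 11.67), aurka.S (8.33, nearest 8.96) and meis2.L (7.88, nearest 7.13). Replicate 3 at 1 day did so in dnajc7.L (11.59, nearest 10.81) and smad2.L (11.12, nearest 9.67), and replicate 2 at 1 day in matn1.L (6.59, nearest 8.07). On the other arrays, replicate 4 at 5 days read 8.44 in polr1e.L (nearest 9.16), replicate 3 at 5 days 8.96 in c3.L (nearest 8.43) and replicate 1 at 1 day 13.18 in acta1.S (nearest 10.43).

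The day difference of socs3.L differed between stage 57 and stage 53 by 2.54 (limma interaction, adjusted p = 0.0483), and by 2.49 without the 3 high-ratio arrays, where it was not called (adjusted p = 0.11).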

How the results depend on the processing

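No alternative gave an adjusted call between the days in either direction, and the smallest adjusted p in any was 0.0901, without the 3 high-ratio arrays. Counts at an unadjusted limma p below 0.05, 55 higher and 41 lower with all 8 arrays, depended on the setting. They were 233 and 165 without the 3 high-ratio arrays, 105 and 105 with those arrays marked in the model, 161 and 155 with the actin ratio as a covariate, 370 and 323 with array quality weights, 102 and 99 without the filter, 26 and 20 with a filter at the 50th percentile and 131 and 106 in the fit of all 16 arrays. Without the 2 arrays of lowest correlation, replicate 3 at 1 day and replicate 2 at 5 days, an alternative chosen after seeing the data, they were 303 and 265. Leaving out each array in turn gave 19 to 300 higher and 19 to 224 lower. The counts were 89 and 92 without replicate 3 at 1 day, 187 and 112 without replicate 4 at 1 day, 300 and 224 without replicate 2 at 5 days and 19 and 19 without replicate 4 at 5 days. The lower count alone moved, to 23, without replicate 2 at 1 day or replicate 3 at 5 days. The cause was not tested.

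The stage by day interaction, 3 called probe sets with all arrays, was called for 0 without the 3 high-ratio arrays, 1 without the filter and 0 to 2 when each of the 16 arrays was left out. Of 2002 values of 92 named results under the alternatives, 1994 kept their direction and 8 reversed. These were egr1.L (0.3346 without replicate 1 at 1 day, 0.2819 without replicate 2 at 1 day and 0.0539 without replicate 1 at 5 days), col1a2.L (-0.0604 with the high-ratio arrays marked and -0.0528 without replicate 3 at 1 day), col2a1.S (-0.0887 without replicate 4 at 5 days), and, both without replicate 1 at 1 day, pcna.L (-0.0242) and hand2.S (-0.0675). Over all single arrays left out, egr1.L ran from -0.5001 to 0.3346, col1a2.L from -0.0528 to 1.0841, col2a1.S from -0.0887 to 1.2475, pcna.L from -0.0242 to 0.235 and hand2.S from -0.0675 to 0.8604. The 92 named results do not hold every gene of the fixed set, nor every gene given above with a direction. The 8 reversals therefore do not count all reversals among the genes in the text. Some fixed-set genes outside the 92 reversed without the 3 high-ratio arrays. Examples are hand2.L (-0.22 to 0.09), myog.S (0.79 to -0.37), hmox1.S (0.68 to -0.27), thra.L (-0.36 to 0.15) and mcm2.L (-0.39 to 0.01). For genes outside the 92, values with single arrays left out are mostly not given here. Others, such as mmp2.S (0.62 to 0.41), kept their direction in that setting. No paired analysis was possible because the labels give no replicate numbers shared between the days. No detection calls were used, so a dim signal was not separated from background.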
